A study of Mus musculus with 7 samples.

Results

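Cxcl1, Cxcl2, Cxcl3, Cxcl5 and Ppbp encode the CXC chemokines that attract neutrophils in the mouse, and Cxcr2 encodes the receptor they share. These 6 genes, 5 ligands and 1 receptor, were taken by name as a family and looked up by gene identifier among the 18036 genes with at least 1 read in any of 7 libraries of colon epithelium. All 6 were found, Cxcl1, Cxcl2, Cxcl5 and Cxcr2 with reads in 7 of 7 libraries and Cxcl3 and Ppbp in 6 of 7. All 6 also passed the filter on low values (at least 1 RPKM, which is reads scaled to gene length and library total, in at least 2 libraries), and the 5 ligands passed it through treated libraries alone.

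The libraries were RNA-seq of epithelium scraped off the muscle layer of the colon, and each was a pool of RNA from 3 female mice aged 6 weeks. All mice, controls included, were hCYP1A animals on C57BL/6, in which human CYP1A genes replace the mouse ones, and mouse Cyp1a1 and Cyp1a2 had 0 reads in every library. The control mice were untreated. The DSS mice drank 1.5% dextran sulfate sodium, a polymer that injures the colon lining and causes colitis, for 5 days. The PhIP/DSS mice were first dosed 2 times, 4 days apart, with PhIP at 100 mg/kg, and began the same DSS course a week later. PhIP is a heterocyclic amine found in cooked meat. By the sample labels, treated mice were killed on day 1, 3 or 7 after DSS ended, while the deposited tables of these groups carry the day codes 3, 7 and 17 in their names. The labels are followed here. Each of the 7 conditions had 1 library and no replicate, and no PhIP library without DSS was analysed here.

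As background, the 5 ligands carry a glutamate-leucine-arginine motif ahead of their CXC cysteines and act on CXCR2, a G protein coupled receptor that neutrophils carry at high density. Epithelial, stromal and myeloid cells make Cxcl1, Cxcl2 and Cxcl3 within hours of a signal from interleukin 1, TNF or bacterial products, through NF-kappaB, and their mRNAs are short-lived because decay factors bind AU-rich stretches after the coding sequence. Cxcl5 is made mainly by epithelium in the mouse, and Ppbp is best known as a platelet granule chemokine.

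The ligand genes lie together at chr5:90759298-90905938 of GRCm38.p6, a span of 146.6 kb with 7 coding genes in the order Cxcl5, Ppbp, Pf4, Cxcl3, Cxcl15, Cxcl1 and Cxcl2. Cxcr2 lies apart, at chr1:74153994-74161246. The 100 bases before the annotated start of Cxcl1, Cxcl2 and Cxcl3, 3 ligands with similar courses below, are shown from the RefSeq promoter table of that build, on the plus strand at chr5:90891145-90891244, chr5:90903799-90903898 and chr5:90786001-90786100. Capitals mark the longest run of letters that all 3 share in the part of the promoter window before the start.
Cxcl1: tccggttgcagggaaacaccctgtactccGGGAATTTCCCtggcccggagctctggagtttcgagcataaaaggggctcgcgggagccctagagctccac
Cxcl2: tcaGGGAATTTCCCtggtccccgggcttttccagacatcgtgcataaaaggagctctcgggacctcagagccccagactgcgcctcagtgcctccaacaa
Cxcl3: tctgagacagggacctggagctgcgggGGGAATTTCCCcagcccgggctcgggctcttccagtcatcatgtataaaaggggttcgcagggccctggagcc
The shared run, GGGAATTTCCC, has the form of an NF-kappaB binding motif and began at base -71, -97 and -73 from the start of Cxcl1, Cxcl2 and Cxcl3. Searched on both strands, these 11 letters occurred in 14 of 32851 promoter windows of the table, or 0.0426%. They did not occur in the windows of Ppbp and Cxcr2, nor in those found for the genes in the lists described below. The run was picked because these 3 genes share it, so its rarity is a description.

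The sequence after the stop codon, taken from the GENCODE M21 transcripts, differed among the members in AU-rich elements. The richest 30 bases of Cxcl1, Cxcl2 and Cxcl3 are shown, with ATTTA in capitals, since decay factors recognise this core.
Cxcl1: gagggtcctATTTATTTAtgtATTTATTTA
Cxcl2: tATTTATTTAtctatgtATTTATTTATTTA
Cxcl3: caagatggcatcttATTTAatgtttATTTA
Over the whole stretch after the stop codon, ATTTA (overlaps counted) occurred 11 times in Cxcl2, 7 times in Cxcl1, 5 times each in Cxcl3 and Cxcl5, 2 times in Cxcr2 and once in Ppbp. At least 5 matches occurred in 18.2% of 17327 coding genes. The longer core TATTTAT occurred 7 times in Cxcl2 and 6 times in Cxcl1, against at least 4 in 1.32% of genes, and 2 times in Cxcl3, 1 time in Cxcl5 and not in Cxcr2 or Ppbp. Per kilobase the ATTTA count was 14.99 in Cxcl2, 11.8 in Cxcl1, 7.75 in Cxcl3, 4.50 in Cxcl5, 2.02 in Cxcr2 and 1.52 in Ppbp, and the median of all genes was 1.23. A match of letters is a description and shows no binding.

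Library totals lay between 7.66 M and 8.78 M unique reads. In a joint edgeR quasi-likelihood fit of all 7 libraries, which takes the spread from day-to-day variation of the arm difference, 0 of 12061 genes passed an adjusted p of 0.05 (0%) in any comparison. The unadjusted p was under 0.05 for 3932 genes on day 1 against the control, 2291 on day 3, 2076 on day 7 and 442 for PhIP/DSS against DSS over the 3 days. DESeq2 called 1258, 432, 482 and 18 genes in the same 4 comparisons, and limma on log2(RPKM + 1) called 0. Below, ratios between 2 libraries are therefore descriptions of reads scaled to library totals, with an exact 95% interval that covers counting error only, and no ratio has a replicate check.

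Cxcl2 was the member with the highest level in any library. It stood at 0.120 RPKM in the control, 4.02, 27.2 and 23.0 on days 1, 3 and 7 of DSS, and 78.3, 3.29 and 4.51 on the same days of PhIP/DSS. Thus Cxcl2 was lowest in the control and highest in PhIP/DSS on day 1, where 724 reads stood against 1 control read. Cxcl3, the closest relative of Cxcl2, had 0 reads in the control, 2.34, 14.4 and 10.8 RPKM in DSS, and 34.6, 1.04 and 1.73 RPKM in PhIP/DSS. Its libraries had the order of those of Cxcl2, except that DSS day 1 and PhIP/DSS day 7 changed places. Cxcl1 stood at 0.271 RPKM in the control, 3.33, 6.61 and 5.15 in DSS, and 10.3, 3.08 and 3.58 in PhIP/DSS. All 3 genes therefore peaked on day 3 within the DSS arm and on day 1 within the PhIP/DSS arm, with a narrower range for Cxcl1. In bulk RNA of a scraped tissue, more cells of a type and more RNA per cell cannot be told apart.

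**Figure D1:**
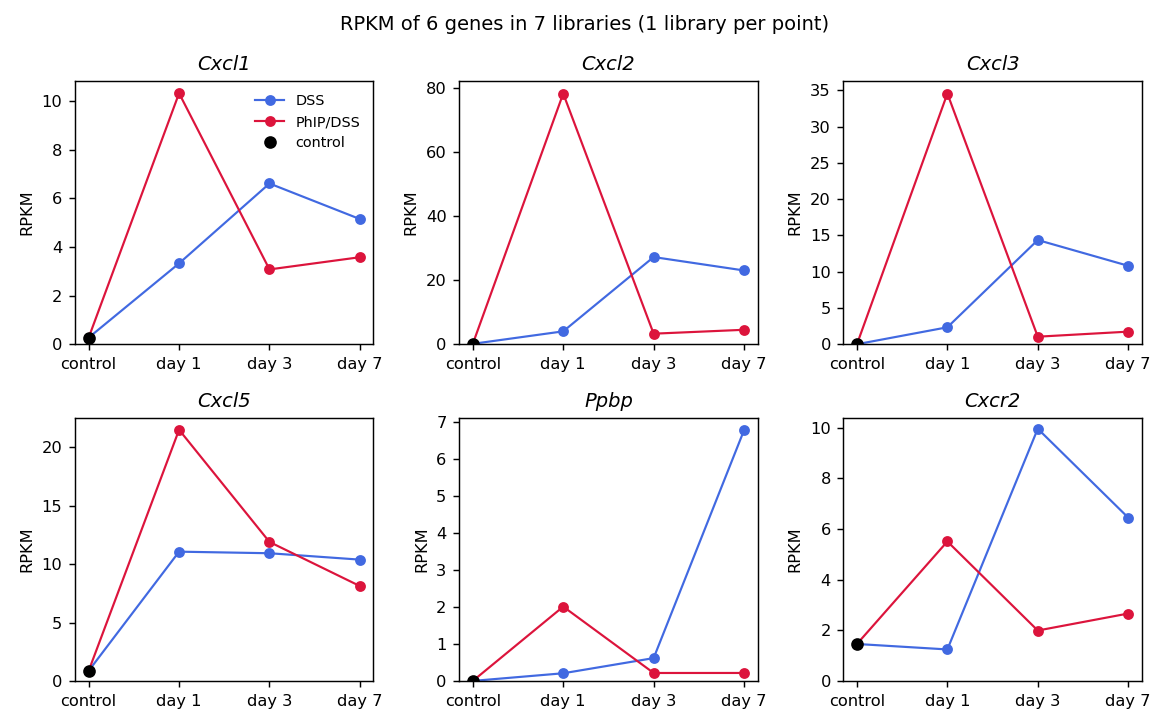
RPKM of the 6 genes (vertical axes, linear, own scale each) in the control and on days 1, 3 and 7 after DSS, in blue for DSS and red for PhIP/DSS, with 1 library per point and the control shared by both lines. Cxcl1, Cxcl2, Cxcl3 and Cxcr2 are highest on day 3 in DSS and on day 1 in PhIP/DSS, Cxcl5 is at 8.13 RPKM or more in every treated library, and Ppbp is highest in DSS on day 7, at 6.78 RPKM.

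Cxcl5 had a flatter course. Its level was 0.867 RPKM in the control, 11.1, 10.9 and 10.4 on days 1, 3 and 7 of DSS, and 21.5, 11.9 and 8.13 in PhIP/DSS. Every treated library lay far above the control, and 5 of the 6 treated libraries lay between 8.13 and 11.9 RPKM. Of all members it had the smallest fitted standard errors, with edgeR log2 fold changes against the control of 4.18 (SE 0.57, adjusted p = 0.0710) on day 1, 3.73 (SE 0.56, adjusted p = 0.138) on day 3 and 3.45 (SE 0.56, adjusted p = 0.118) on day 7. None of the 3 passed the threshold in this fit, whereas DESeq2 called Cxcl5 on all 3 days and Cxcl1, Cxcl2 and Cxcl3 on day 1. Leaving out 1 library gave day 1 log2 fold changes of 3.55 to 10.5 for Cxcl2 and -1.14 to 2.81 for Cxcr2. Without either day 1 library, day 1 rests on a single arm. The fit then fills in the missing arm from the PhIP term of days 3 and 7, when the arm ratios below were lower for every member. Those fits are therefore no check on the day 1 changes. For Cxcl1 the log2 fold changes of the joint fit were 4.57 (SE 1.29), 4.11 (SE 1.29) and 3.96 (SE 1.28), with edgeR adjusted p of 0.0976, 0.216 and 0.2499. The standard errors of Cxcl2, between 3.96 and 3.99, were wider, and its edgeR adjusted p was between 0.204 and 0.446. For Cxcl3 the edgeR adjusted p was between 0.202 and 0.451, for Ppbp between 0.346 and 0.620, and for Cxcr2 between 0.495 and 0.583.

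Ppbp was the only member with its highest level in DSS on day 7. It had 0 reads in the control, 0.207, 0.617 and 6.78 RPKM on days 1, 3 and 7 of DSS, and 2.01, 0.214 and 0.215 RPKM in PhIP/DSS. In reads these were 2, 6 and 62 in DSS and 19, 2 and 2 in PhIP/DSS, so 3 of the 6 treated libraries were at or under the 3 reads that a count of 0 allows. The 62 reads on day 7 covered 85.5% of the gene length, close to the 93.6% that evenly spread reads of 49 bases would cover, and so did not come from a single stretch. The summed level of platelet and megakaryocyte markers lay between 2.86 and 6.71 RPKM and was also highest in DSS on day 7, where Gp1bb alone made up 5.23 RPKM. Without Gp1bb the other 9 markers summed to 1.49 RPKM in DSS on day 7, under the 1.99 of the control and the 2.05 of PhIP/DSS on day 7. Of these 10 markers, Treml1 and Tubb1 had 0 reads in every library and only Gp1bb, a subunit of the platelet von Willebrand factor receptor, passed the filter, at 0.876 RPKM in the control and 2.36 to 5.23 in treated libraries. Their part in the level of Ppbp was not tested.

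Per length, the make-up of the ligand RNA differed between libraries. The RPKM summed over the 5 ligands was 1.26 in the control, 21.0, 59.8 and 56.2 on days 1, 3 and 7 of DSS, and 147, 19.5 and 18.2 in PhIP/DSS. Cxcl5 held the largest share in the control (68.9%), in DSS on day 1 (52.8%) and in PhIP/DSS on days 3 and 7 (61.0% and 44.7%). Cxcl2 held the largest share in the 3 libraries with the highest sums, 45.6% and 41.0% in DSS on days 3 and 7 and 53.4% in PhIP/DSS on day 1. Cxcl3 followed Cxcl2 in these, with 24.04%, 19.3% and 23.6%. The control shares rest on 11, 2 and 1 reads of Cxcl5, Cxcl1 and Cxcl2.

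**Figure D2:**
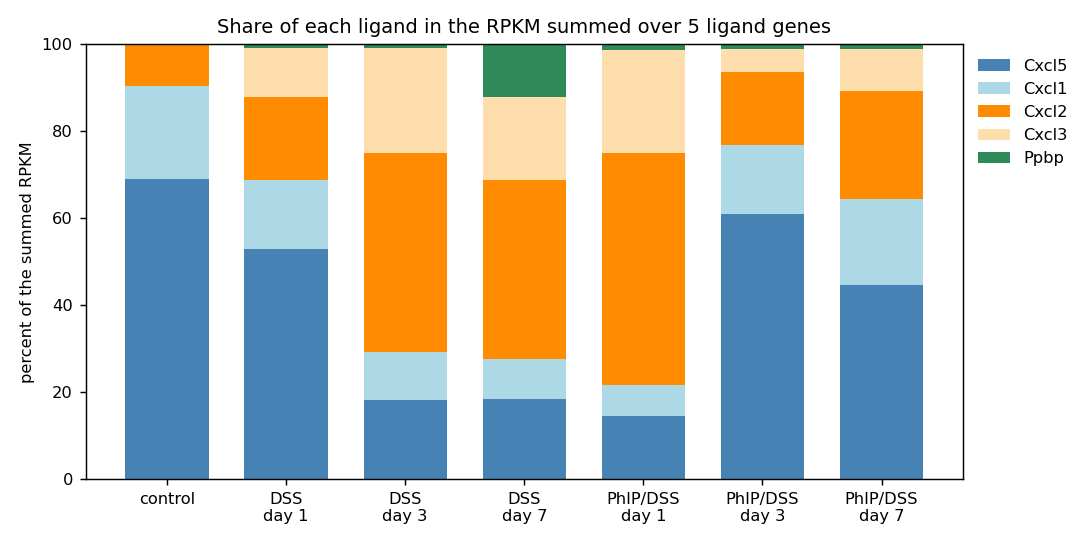
Percent of the RPKM summed over the 5 ligand genes (vertical axis) held by each ligand in each of the 7 libraries (bars, 1 library each). Cxcl5, in dark blue, is the largest share in 4 libraries, and Cxcl2, in orange, in DSS on days 3 and 7 and PhIP/DSS on day 1.

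Against the control library, 4 members were at least 4-fold higher in DSS on day 1, where 1.97% of the 12061 genes were that much higher, 5 on day 3 (4.00% of genes) and 6 on day 7 (3.91%). In PhIP/DSS the numbers were 5 on day 1 (5.46%), 3 on day 3 (1.57%) and 4 on day 7 (3.08%). At least 4-fold lower were 0 members in all 6 comparisons, against 0.937%, 1.31% and 0.821% of genes on the 3 days of DSS and 2.16%, 0.597% and 0.547% on those of PhIP/DSS. Since the ligands passed the filter through treated libraries alone, these counts had to lean one way, and they are given as a description. By ratio, Cxcl5 was 12.8-fold (interval 6.95 to 26.1) higher than the control in DSS on day 1 and 24.8-fold (13.7 to 50.2) in PhIP/DSS on day 1. Cxcl1, with 2 control reads, was 24.4-fold (6.46 to 207) higher in DSS on day 3 and 38.2-fold (10.2 to 320.2) in PhIP/DSS on day 1. For Cxcl2, with 1 control read, the ratio was 33.4 (5.64 to 1352) in DSS on day 1 and 650.0 (116 to 25710) in PhIP/DSS on day 1. Cxcl3, with 0 control reads, was at least 6.15-fold higher in DSS on day 1, at least 37.8-fold on day 3, and at least 91.0-fold in PhIP/DSS on day 1, against the floor of 3 reads in the control library. The 6 comparisons share the control library and are not independent.

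The arms, which differ in PhIP before DSS, were compared on each day. With 1 library per arm and day, PhIP and differences between pools cannot be told apart in these ratios. On day 1 all 6 members were higher in PhIP/DSS, 4 of them by at least 4-fold, against 3.08% of all genes, and 0.149% of genes were at least 4-fold lower. Cxcl2 was 19.5-fold (14.1 to 27.8), Cxcl3 14.8-fold (9.51 to 24.3), Ppbp 9.72-fold (2.34 to 86.0) and Cxcr2 4.43-fold (3.02 to 6.68) higher. Ppbp passed the filter only through PhIP/DSS on day 1 and DSS on day 7, so its place in this count had to lean this way. Cxcl1 was 3.10-fold (2.00 to 4.94) and Cxcl5 1.94-fold (1.60 to 2.37) higher. On day 3 the order of the arms was the opposite for 5 members, for 4 of them with an interval wholly below 1. Cxcl3 was at 0.0722 (0.0323 to 0.141) of its DSS level, Cxcl2 at 0.121 (0.0798 to 0.177), Cxcr2 at 0.200 (0.145 to 0.271) and Cxcl1 at 0.465 (0.278 to 0.758). Ppbp, with 2 reads against 6, was at 0.347 (0.0343 to 1.94), an interval that includes 1. Thus 3 members were at least 4-fold lower, against 2.06% of all genes, and 0 were 4-fold higher (0.240% of genes), while Cxcl5 had a ratio of 1.09 (0.870 to 1.36).

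On day 7, 3 members were at least 4-fold lower in PhIP/DSS than in DSS, against 0.381% of all genes, and 0 were 4-fold higher (0.207%). These were Ppbp at 0.0317 (0.00376 to 0.119) of its DSS level, Cxcl3 at 0.160 (0.0862 to 0.278) and Cxcl2 at 0.196 (0.136 to 0.275). For Ppbp, which passed the filter only through DSS on day 7 and PhIP/DSS on day 1, this direction was fixed by the filter, and the count is a description. Cxcr2 was at 0.413 (0.306 to 0.551). For Cxcl1 at 0.695 (0.417 to 1.15) and Cxcl5 at 0.782 (0.605 to 1.01) the interval included 1. Averaged over the 3 days, the fitted log2 difference between PhIP/DSS and DSS lay between -1.25 for Cxcl3 and 0.23 for Cxcl5, with an edgeR adjusted p of 0.998 or more for all 6. For Cxcl2 it was -0.92 with an SE of 1.85, and the sign depended on which library was left out. Without the DSS day 1 library it was -2.71 (edgeR adjusted p = 0.00216), and without the PhIP/DSS day 1 library also -2.71 (edgeR adjusted p = 0.00144), whereas without any 1 of the day 3 and day 7 libraries it lay between 0.65 and 0.97.

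**Figure D3:**
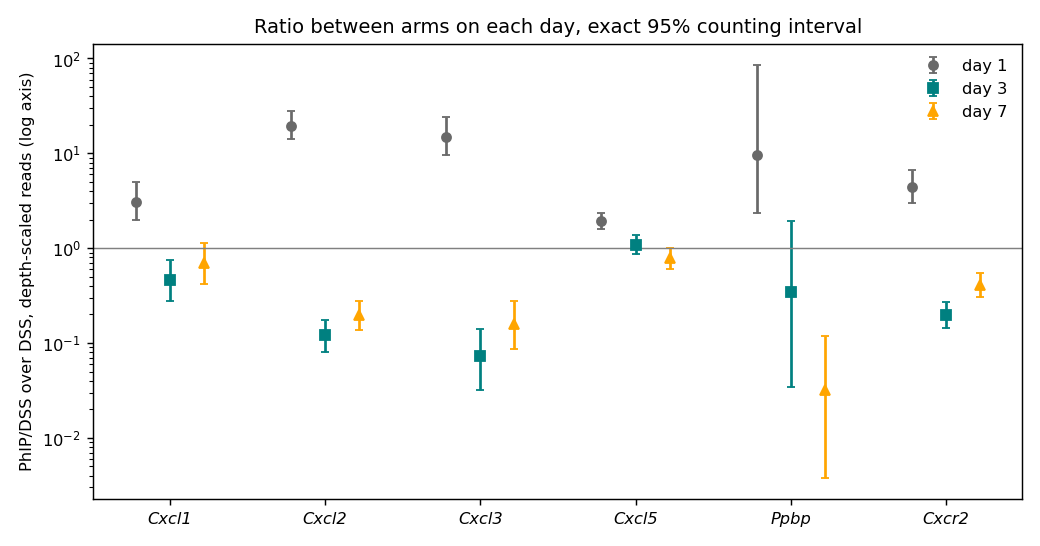
Reads of each gene in PhIP/DSS over DSS on the same day, scaled to library totals (vertical log axis), with the exact 95% counting interval as bars and 1 pair of libraries per point. All 6 day 1 points lie above 1, the day 3 points of Cxcl1, Cxcl2, Cxcl3 and Cxcr2 lie below 1 with their intervals, and Cxcl5 stays between 0.782 and 1.94.

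Cxcr2, the receptor, was the member with the most control reads, 34. Its level was 1.46 RPKM in the control, 1.24, 9.95 and 6.45 on days 1, 3 and 7 of DSS, and 5.51, 1.99 and 2.66 in PhIP/DSS. It was thus highest in DSS on day 3, whereas Cxcl1, Cxcl2, Cxcl3 and Cxcl5 were highest in PhIP/DSS on day 1. Against the control it was 6.83-fold (4.77 to 10.1) higher in DSS on day 3 and 3.78-fold (2.58 to 5.66) in PhIP/DSS on day 1, and the ratio was 0.852 (0.511 to 1.42) in DSS on day 1. The control reads were bunched: 34 reads covered 486 bases, 15.97% of the gene length, where evenly spread reads would cover 42.2%. That quotient, 0.379, lay under the 5th percentile (0.526) of 1548 genes with 20 to 60 reads in the same library, whose median was 0.875. In DSS on day 1 the quotient was 0.496, with a 5th percentile of 0.518, and in DSS on day 3 the 266 reads covered 90.9% against 98.6%. In the transcript of matching length, 211 of 2998 stretches of 49 bases (7.04%) also occurred in transcripts of other genes. The part of the bunched reads in the control level was not tested, and ratios of Cxcr2 against the control and DSS day 1 libraries carry this limit.

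**Figure D4:**
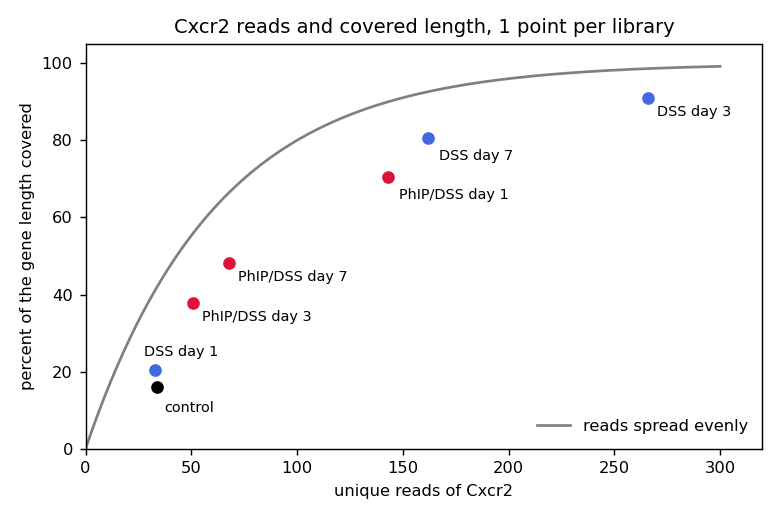
Percent of the Cxcr2 gene length covered (vertical axis) against its unique reads (horizontal axis), 1 point per library, with the coverage of evenly spread reads of 49 bases as the grey line. The control (34 reads, 15.97%) and DSS day 1 (33 reads, 20.4%) lie farthest under the line in proportion, and DSS day 3 (266 reads, 90.9%) lies near it.

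Cxcr1, the neighbouring receptor gene, was not above 0.607 RPKM in any library and did not pass the filter. Among the ligands, the sequences of Cxcl2 and Cxcl3 are the most alike, with 89.7% identity over the coding sequence, against 75.7% for Cxcl1 and Cxcl2 and 72.7% for Cxcl1 and Cxcl3, and 48.9% to 54.9% for the pairs with Cxcl5 or Ppbp. Of the stretches of 49 bases in Cxcl2, 62 of 1061 (5.84%) also occur in Cxcl3, and these are 6.405% of those in Cxcl3. A read lying within such a stretch has no single place, so both genes can lose reads there. Cxcl1 and Ppbp share no such stretch with another gene.

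Within the ligand cluster, not every coding gene had the members' course. Pf4, the platelet chemokine gene between Ppbp and Cxcl3, lay between 0.424 RPKM in the control and 2.67 in PhIP/DSS on day 1. Cxcl15, which lies between Cxcl3 and Cxcl1, had at most 0.0560 RPKM. Outside the cluster, Mthfd2l, a mitochondrial folate enzyme gene beside Cxcl2, lay between 1.99 and 2.83 RPKM, and Rassf6 on the other side between 27.7 and 40.1. Farther along the same side as Mthfd2l lie the EGF receptor ligand genes Ereg and Areg. Ereg stood at 0.315 RPKM in the control, 3.96, 4.24 and 3.22 in DSS, and 11.5, 2.07 and 1.61 in PhIP/DSS. Areg was at 15.6 RPKM in the control and between 37.0 and 65.4 in treated libraries. Both were highest in PhIP/DSS on day 1.

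**Figure D5:**
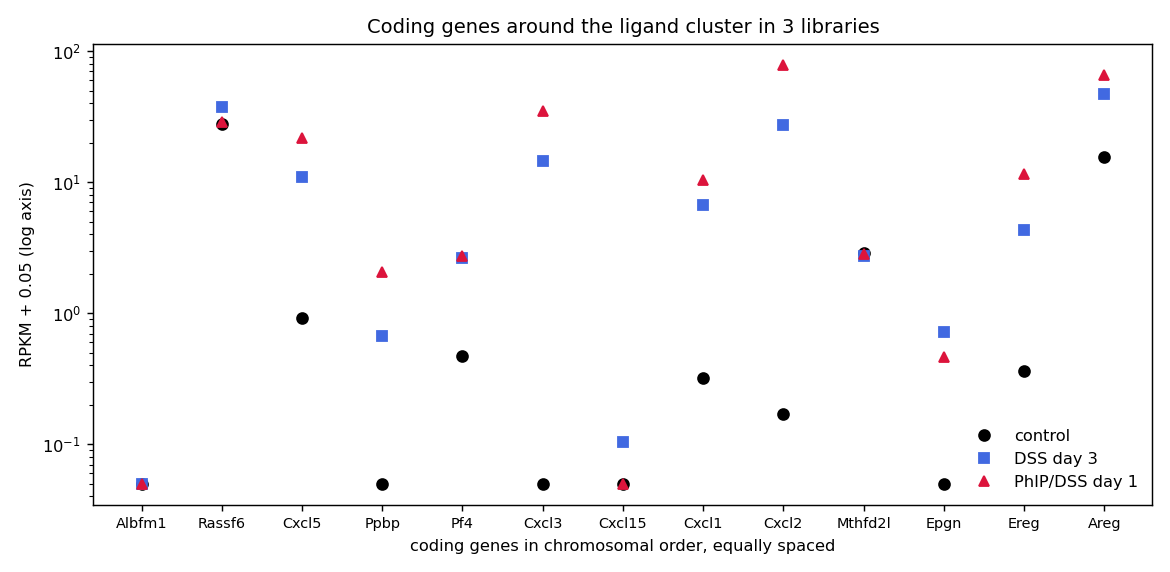
RPKM + 0.05 (vertical log axis) of the coding genes around the ligand cluster, in chromosomal order and equally spaced, in the control (black circles), DSS day 3 (blue squares) and PhIP/DSS day 1 (red triangles), 1 library each. Cxcl1, Cxcl2, Cxcl3, Cxcl5 and Ereg lie far above the control in both treated libraries, while Rassf6 and Mthfd2l lie within a narrow band.

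Among the cytokines that induce the ligands, Il1b had the highest mean level over the 7 libraries, although Il36g, at 3.41 RPKM, was above it in the control. Il1b, an interleukin 1 gene, stood at 1.28 RPKM in the control, 17.7, 127 and 101 in DSS, and 263, 7.51 and 36.1 in PhIP/DSS, so that it too was highest on day 3 in DSS and on day 1 in PhIP/DSS. Tnf stood at 0.403 RPKM in the control and 21.9 in PhIP/DSS on day 1, and Il1a at 0.330 and 27.9, and neither passed the edgeR threshold. Il36g lay between 2.67 and 10.7 RPKM. Of 12 cytokine genes 6 passed the filter and 0 were called. With counts under 3 reads set to 3, their median ratio to the control was 3.76, 19.2 and 20.2 on days 1, 3 and 7 of DSS and 49.7, 1.29 and 4.87 in PhIP/DSS, and the median of all genes lay between 0.959 and 1.01. Between the arms, 5 of the 6 were at least 4-fold higher in PhIP/DSS on day 1 (3.08% of all genes) and 4 were at least 4-fold lower on day 3 (2.06%). Osm and Csf3 reached 1 RPKM only in DSS on days 3 and 7 and PhIP/DSS on day 1. For them these counts had to lean this way, and the counts are a description. Il17a, the gene of a cytokine that stabilises Cxcl1 mRNA, had at most 9 reads in a library and did not pass the filter.

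The receptors and signal genes that these cytokines use had medians near those of all genes. All 13 passed the filter and 0 were called in any comparison, with median fitted log2 fold changes against the control of 0.01, -0.06 and -0.12 on days 1, 3 and 7, where the medians of all genes were 0.01, 0.01 and -0.01. Their most abundant members, Il17rc, Tnfrsf1a, Nfkbiz and Rela, include Nfkbiz, which encodes an NF-kappaB cofactor and stood at 12.1 RPKM in the control and 25.5 to 56.8 in treated libraries, highest in PhIP/DSS on day 3. Il1r1, an interleukin 1 receptor gene, went the other way, at 7.30 RPKM in the control and 1.98 to 3.00 in treated libraries. Of the 10 feedback inhibitors and decay factors, 0 were called, and 8, 8 and 7 had a fitted log2 fold change above 0 on the 3 days, with medians of 1.03, 0.80 and 0.82. Il1rn, the interleukin 1 receptor antagonist, was at 55.1 RPKM in the control and 289 in PhIP/DSS on day 1. Zfp36, which encodes the decay factor tristetraprolin, was at 62.1 and 146, and Nfkbia at 49.8 and 150.0, in the same pair of libraries. Bcl3 was at 44.1 and 119. All 4 were highest in PhIP/DSS on day 1.

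Downstream of CXCR2, the most abundant of 13 signal genes were Vasp, Gnai2, Gnai3 and Grk2, which are expressed in many cell types. Gnai2, the inhibitory G protein subunit gene, stood at 160.4 RPKM in the control and 235 to 290.3 in treated libraries, and Vasp at 227 and 239 to 288. Of the 13 genes 0 were called, and their median log2 fold changes against the control were 0.65, 0.35 and 0.32 on days 1, 3 and 7. Between the arms, 4 of the 13 were at least 4-fold higher in PhIP/DSS on day 1, against 3.08% of all genes, and 2 were at least 4-fold lower on day 3, against 2.06%.

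All 6 of the other CXC chemokines that passed the filter, among them Pf4, had their highest level in PhIP/DSS on day 1. Apart from Cxcl10 the margins were narrow, and Pf4 had 14 reads both there and in DSS on day 3. Of 10 genes in the list these 6 passed the filter and Cxcl17 had 0 reads, and 0 were called in any comparison, with median log2 fold changes of 2.58, 2.48 and 2.16. Cxcl10, a ligand of CXCR3 on T cells, was at 2.45 RPKM in the control, 6.44, 22.1 and 13.9 in DSS, and 46.8, 6.99 and 9.99 in PhIP/DSS. Cxcl9, which acts on the same receptor, was at 0.359 RPKM in the control, 3.15, 7.49 and 7.30 in DSS, and 11.9, 3.76 and 10.9 in PhIP/DSS. Cxcl16 and Cxcl13, the other abundant genes, reached 20.8 and 13.3 RPKM in PhIP/DSS on day 1, against 18.9 and 11.9 in PhIP/DSS on day 7. Cxcl14 reached 5.45 RPKM in PhIP/DSS on day 1 and 4.92 in DSS on day 7. On day 7 none of these 6 was 4-fold lower in PhIP/DSS than in DSS, where 3 of the 6 members were, and the difference between the lists was not tested. Of 7 other CXC and atypical receptors 3 passed, 0 were called, and Cxcr4, Cxcr5, Ackr3 and Cxcr3 had at most 5.15 RPKM in any library.

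Markers of neutrophils, the cells that carry CXCR2, were high in the same 3 libraries as Cxcl2. Their summed level over 17 markers was 1.83 RPKM in the control, 41.8, 1257 and 521 on days 1, 3 and 7 of DSS, and 921, 34.0 and 83.1 in PhIP/DSS. It was thus higher in DSS on day 3 than in PhIP/DSS on day 1, as was Cxcr2, while the summed ligand level was the other way round. S100a8 and S100a9 carried most of that sum: without them the other 15 markers summed to 258 RPKM in DSS on day 3 and 244 in PhIP/DSS on day 1, and of the 15 markers that passed the filter 8 were higher in the former library and 7, Clec4e among them, in the latter. S100a9, S100a8, Retnlg and Clec4e were the most abundant, and S100a9 alone stood at 0.802 RPKM in the control and 583 in DSS on day 3. Of the 15 that passed the filter all were at least 4-fold higher than the control in both of these libraries, against 4.00% and 5.46% of all genes, and 0 were called by edgeR. All 15 were under 1 RPKM in the control and passed through treated libraries alone, so this count had to lean one way and is given as a description. Ly6g, a defining surface marker, had 0 reads in every library, which cannot be told from a gene that was not counted. The part of neutrophil RNA in the members' levels was not tested.

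The 9 genes of neutrophil adhesion and entry summed to 7.36 RPKM in the control, 61.2, 42.2 and 83.4 in those 3 libraries, and 14.2 to 25.7 in the other treated ones. Itgb2, Icam1, Selplg and Itgam were the most abundant, 7 passed the filter and 0 were called, and their median log2 fold changes were 2.99, 2.38 and 2.14. Itgb2, the beta chain of leukocyte integrins, stood at 1.37 RPKM in the control, 2.56, 16.6 and 11.9 in DSS, and 25.6, 2.49 and 5.49 in PhIP/DSS. Icam1, its ligand on endothelium and epithelium, went from 1.44 RPKM in the control to 14.3 in PhIP/DSS on day 1.

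Markers of other cell types also differed between the libraries. Macrophage and monocyte markers, led by Cd14, Lyz2, Cd68 and C1qb, summed to 54.3 RPKM in the control, 115, 296 and 257 in DSS, and 525, 108 and 202 in PhIP/DSS. Fibroblast and matrix markers, led by Dcn, Col3a1, Col1a1 and Col1a2, summed to 14.1 in the control, 38.8, 87.2 and 90.1 in DSS, and 166, 37.1 and 69.2 in PhIP/DSS. Both sums were highest in PhIP/DSS on day 1, as were 4 of the 5 ligands, but not every marker was. Ccr2, Mrc1, C1qa, Cx3cr1 and Thy1 were highest in PhIP/DSS on day 7. Fap was highest in the control, at 1.11 RPKM, and lowest in PhIP/DSS on day 1, at 0.391. Fat cell markers set PhIP/DSS on day 1 apart further: Cfd, Fabp4, Car3, Cidec and the other 5 summed to 163 RPKM there, 23.9 in the control and 2.65 to 7.56 elsewhere. Adipoq, a defining fat cell gene, was at 6.94 RPKM there, at 1.48 in the control and at 0 in 3 libraries. Not every fat cell marker went this way. Cidec was at 11.1 RPKM in PhIP/DSS on day 1, but at 1.46 in the control and 1.61 to 4.95 in the other treated libraries. Adig was highest in DSS on day 3, at 0.856 RPKM, against 0.705 in PhIP/DSS on day 1, from 5 and 4 reads. The part of these cells in the high members' levels of PhIP/DSS on day 1 was not tested.

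Markers of the labelled tissue were abundant in every library. The 10 columnar epithelium markers, led by Krt8, Krt19, Lgals4 and Epcam, all passed the filter and summed to between 10203 RPKM in the control and 12531 in DSS on day 1, with 0 called. Smooth muscle markers, led by Smtn, Tagln, Acta2 and Actg2, summed to 19.4 to 28.1 RPKM and endothelial markers, led by Pecam1, Cdh5, Emcn and Kdr, to 1.50 to 5.36. Squamous epithelium markers, led by Sprr1a, Krt14, Krt13 and Krt6a, summed to 34.0 RPKM in the control and up to 190 in PhIP/DSS on day 1, with Sprr3 at 0 reads in every library. None of the genes in these 3 lists was called.

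The genes with the most similar profiles were found by the mean absolute difference of centred log2(RPKM + 1) over the 7 libraries, among the filtered genes. For Cxcl2 these were Cxcl3 (0.27), Ptgs2 (0.38) and Srgn (0.39), and for Cxcl3 they were Fcer1g (0.26), Ptgs2 (0.26) and Cxcl2 (0.27). Ptgs2, the cyclooxygenase gene induced in inflammation, stood at 0.189 RPKM in the control, 2.02, 13.9 and 13.4 in DSS, and 32.0, 1.14 and 4.16 in PhIP/DSS. Cxcl1 was closest to Tnfrsf1b (0.10), Gpx3 (0.19) and Plaur (0.19), and Cxcl5 to Plaur (0.19), Ckb (0.19) and Lpcat4 (0.21). Plaur, the urokinase receptor gene, was thus near both, at 6.82 RPKM in the control and 22.9 to 70.6 in treated libraries. For Ppbp the closest were Ctsk (0.32), Ccn2 (0.35) and 4930461G14Rik (0.37). Ctsk, which encodes cathepsin K, was at 8.66 RPKM in DSS on day 7 and at most 1.37 elsewhere. Cxcr2 was closest to Prok2 (0.16), Klra17 (0.20) and Cd33 (0.21), and Prok2 was highest in DSS on day 3, at 4.52 RPKM, with 0 reads in the control. Likeness over 7 libraries that differ in so many genes is a description, and says nothing of shared control.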

How the data were processed

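Each of the 7 deposited tables holds 1 library. Per the file headers, the authors gave a count of unique reads for each gene, its RPKM and the percent of the gene length covered. The RPKM equalled reads divided by length and library total, with no further scaling. The submitters' processing notes name mm10 and FastQC, and not given in the sources used here are aligner, annotation release and strandedness. Genes missing from a table were entered as 0 reads. Genes with 0 reads in every library, mouse Cyp1a1 and Cyp1a2 among them, therefore cannot be told from genes that were not counted. Gene identifiers were matched to a RefSeq table of GRCm38.p6 (17983 of 18036 with a symbol). Groups and days come from the sample labels; the day codes in the table names differ from them.

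The main test was edgeR 4.0.16 (R 4.3.3) on the counts of 12061 genes that reached 1 RPKM in 2 libraries or more (TMM, quasi-likelihood, Benjamini-Hochberg over all genes tested, called at an adjusted p under 0.05). A level for the control and each day plus 1 term for PhIP left 2 residual degrees of freedom, and the biological coefficient of variation was 23.7%. With 1 library a condition, the spread behind the p-values is the day-to-day variation of the arm difference. It holds any real change of that difference between days, and no spread between pools of the same condition could be measured. Ratios of 2 libraries were scaled to total unique reads, with a floor of 3 reads where the denominator was 0 and exact conditional binomial 95% intervals (SciPy 1.17.1). With both sides at or under 3 reads no ratio was formed. The fit and the ratios were tested on simulated data. For the fit, the simulated fold changes were the same on all days and in both arms. That simulation therefore cannot show how the fit behaves where the arm difference changes between days. Alternatives were DESeq2 1.42.0, limma 3.58.1 on log2(RPKM + 1) and log2(RPKM + 0.1), other filters, other designs, other depth scalings and leaving out each library.

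Read length was taken as 49 bases, since 99.4% of 7654 genes with 1 read in a library covered that many. Coding sequence identity, AU-rich matches and shared stretches came from the GENCODE M21 transcripts (1 transcript per gene), and promoters from RefSeq. Cxcl5 was not matched in the promoter table.

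The members and the 16 lists of related genes and cell type markers were chosen with earlier results of these data known. Named genes were all members, the 4 genes of each list with the highest mean RPKM, markers at 0 reads, the 3 genes nearest each member in profile, and coding neighbours within 300.0 kb. Il17a, Adipoq, Adig, Il1r1, Osm, Csf3, Zc3h12a, Tnip1, Sigirr, Cxcl14, Ccr2, Mrc1, C1qa, Cx3cr1, Thy1 and Fap were named in addition, after their values were seen.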

Additional observations from a re-analysis of the deposited data

Results flagged for a closer look

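For all 6 genes the PhIP/DSS library was above the DSS library on day 1 and below it on day 3, day 7 or both, and this difference between days was not tested, since each ratio compares 1 library with 1. On days 1, 3 and 7 the ratio was 3.10, 0.465 and 0.695 for Cxcl1. It was 19.5, 0.121 and 0.196 for Cxcl2 and 14.8, 0.0722 and 0.160 for Cxcl3. For Cxcr2 it was 4.43, 0.200 and 0.413. The ratio of Ppbp was 9.72, 0.347 and 0.0317, from 2, 6 and 62 DSS reads. Cxcl5 had ratios of 1.94, 1.09 and 0.782, and was below 1 on day 7 alone. Among the ratios below 1, the counting interval included 1 for Ppbp on day 3 and for Cxcl1 and Cxcl5 on day 7. The summed neutrophil markers went the same way as the first 4 genes, with 41.8 RPKM for DSS against 921 for PhIP/DSS on day 1, 1257 against 34.0 on day 3 and 521 against 83.1 on day 7, and their part in these ratios was not tested.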

How the results depend on the processing

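The count of genes called by the joint fit, 0 in every comparison with edgeR, depended on the tool and the design. On days 1, 3 and 7 against the control and for PhIP/DSS against DSS, DESeq2 called 1258, 432, 482 and 18 genes. With no filter on low values the counts were 6, 3 and 29 on the 3 days, with no PhIP term they were 1305, 27 and 59, and on day 3 both a mean of at least 10 reads and library sizes of all unique reads (chosen after seeing the data) gave 3. Leaving out 1 library gave 0 to 4280, 0 to 2271, 0 to 2010 and 0 to 324 genes. The high counts came without the DSS day 1 library (4280, 2142, 1896 and 282) or without the PhIP/DSS day 1 library (1495, 2271, 2010 and 324), and the other leave-outs gave 0. DESeq2 called 4, 1 and 1 of the 6 members on days 1, 3 and 7, and the fit with no PhIP term called Cxcl5 on day 1. Without either day 1 library, Cxcl2, Cxcl3 and Cxcr2 were called between the arms. Those fits also called members against the control on every day, Cxcl1, Cxcl2 and Cxcl5 each time. With a day 1 library left out, both the PhIP term and the spread rest on days 3 and 7 alone. The missing arm of day 1 is filled in from that term, which bears on the day 1 comparison only. The spread no longer holds day 1, when the arm ratios of all 6 members were above 1. The part of either in the higher counts was not tested.

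The log2 difference between the arms over the 3 days changed sign with the libraries used. Leaving out 1 library gave -0.84 to 0.56 for Cxcl1, -2.71 to 0.97 for Cxcl2, -3.19 to 0.72 for Cxcl3, -0.13 to 0.53 for Cxcl5, -1.82 to 0.36 for Cxcr2 and -3.89 to 1.00 for Ppbp. With no day levels it was 0.14, 0.63 and 0.40 for Cxcl1, Cxcl2 and Cxcl3, and for Cxcl1 limma gave 0.021 with 1 RPKM added and 0.0046 with 0.1 RPKM added. Against the control, the leave-out range for Cxcr2 on day 1 was -1.14 to 2.81, and the 5 ligands stayed above 0 under each alternative run.

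The single-library ratios of the members kept their direction with TMM effective library sizes and with 0.5 reads added to both sides. With TMM sizes the 18 counts of all genes past 4-fold stayed similar, and the members past 4-fold were not recounted. The day levels of the fit match the arms by day. Beyond this, samples could not be paired because each condition had 1 library and the labels carry no replicate numbers. Depth limits Ppbp most, with 2 reads in 3 treated libraries and 0 in the control.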
